A study of Ovis aries with 3 samples.

Results

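GJA1 and GJB2 encode connexin 43 and connexin 26, and their transcripts were followed through the cells of the rumen lining of Hu sheep lambs. The members were the gene entries carrying the symbols GJA1 (ENSOARG00000019963) and GJB2 (ENSOARG00000017089), 2 of the 26247 genes listed, with 1 entry each in every library. The lambs were 42 days old, and single-cell RNA was read from 3 droplet libraries, 1 for milk only, 1 for milk with alfalfa hay (called hay here) and 1 for milk with concentrate starter (called concentrate here). All animals were Hu sheep, milk was part of each diet, and the sources used here do not say how many animals went into a library. With 1 library per diet there was no replicate check and no test between diets, and diet, animal and library preparation cannot be told apart.

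Connexins are membrane proteins that assemble into hemichannels, and hemichannels of neighbouring cells dock to form gap junctions, through which ions and small metabolites pass directly from cell to cell. In stratified epithelia, gap junctions couple the living layers into a common compartment. GJA1 is the most widely expressed connexin and is found in basal and spinous layers of many such epithelia. GJB2 is usually scarce in resting epidermis and abundant in wet-surfaced, wounded or hyperproliferative epithelium. The rumen lining is a stratified, keratinised epithelium that also takes up fermentation acids, and gap junctions in its lower layers are generally described as part of the route that absorbed solutes take.

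The deposited matrices held 63057979, 56861548 and 60220174 UMIs (unique molecular identifiers, each counting 1 captured RNA molecule) in 7032, 9543 and 9214 barcodes for milk only, hay and concentrate. After filtering, 3850, 7031 and 4891 cells remained, of which 3432, 6998 and 4685 were keratinocytes with a median of 11663, 5897 and 8282 UMIs. Pairs of libraries shared 15 to 28 barcodes, and 2 to 8 of the kept cells in each pair. Of 11 keratinocyte clusters, 7 had over 80% of their cells from 1 library. Both connexins were among the variable genes used for clustering, and GJA1 was among the 10 leading genes of the main concentrate cluster, so levels by cluster or class are descriptions. The keratinocyte classes were differentiated (CNFN, A2ML1 and KRT36 among the 10 leading genes), cycling (CENPF, ASPM and PLK1 among the leading genes of its larger concentrate cluster) and other keratinocytes, the clusters that no marker list named. CPM is the number of UMIs of a gene divided by all UMIs of the same cells and scaled to 1000000, and every level below is on that scale unless stated. Summed over all keratinocytes, fibroblast markers came to 199, 10.3 and 42.0 CPM, T or NK markers to 18.3, 1.31 and 1.17 CPM and endothelial markers to 3.20, 2.48 and 6.18 CPM, with 9, 12 and 4 of 17 endothelial genes at 0; their part in the results was not tested. The other keratinocytes carried the basal keratin KRT15 at 2836 to 10299 CPM per cluster, against 1344 CPM in the differentiated cluster. The 95% intervals in parentheses are exact Poisson for levels, exact Clopper-Pearson for shares and exact conditional binomial for ratios of levels and of UMIs. Those of co-detection ratios are exact Poisson intervals of the joint count divided by the expected count, and all cover counting error only.

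GJA1 was present in keratinocytes of each library. It had 5060 UMIs in the milk-only library, a level of 107 CPM (104 to 109). In the hay library it had 4126 UMIs, or 91.5 CPM (88.7 to 94.3). In the concentrate library it had 8791 UMIs, or 197 CPM (193 to 202). The concentrate library was thus the highest for GJA1, and milk only and hay lay close together. At least 1 GJA1 UMI was found in 35.8% (34.2 to 37.5) of milk-only, 26.6% (25.6 to 27.7) of hay and 45.1% (43.6 to 46.5) of concentrate keratinocytes. Positive cells held on average 4.11, 2.21 and 4.16 GJA1 UMIs, with a maximum of 46, 20 and 42.

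GJB2 followed another order, with milk only the highest. Its 1662 UMIs in milk-only keratinocytes gave 35.0 CPM (33.3 to 36.7). Hay had 185 UMIs, or 4.10 CPM (3.53 to 4.74), and concentrate 483 UMIs, or 10.9 CPM (9.90 to 11.9). The share of keratinocytes with a GJB2 UMI was 15.9% (14.7 to 17.1) for milk only, 1.71% (1.42 to 2.05) for hay and 5.10% (4.49 to 5.77) for concentrate. At least 3 GJB2 UMIs were counted in 187 milk-only, 16 hay and 42 concentrate keratinocytes. None of the 3 intervals for the GJB2 level overlapped another.

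The differentiated cells, which carry markers of the outer layers, held the highest level of each connexin among keratinocyte classes. The milk-only library had 667 such cells, against 24 for hay and 36 for concentrate. GJA1 stood at 357 CPM (344 to 370) in the milk-only differentiated cells, at 385 CPM (305 to 479) in the hay cells and at 649 CPM (590 to 713) in the concentrate cells. GJB2 stood at 182 CPM (172 to 191), 212 CPM (154 to 284) and 246 CPM (210 to 286) in the same order. In this class the GJB2 interval of hay overlapped those of both other libraries, and 62.4% (58.6 to 66.1), 62.5% (40.6 to 81.2) and 91.7% (77.5 to 98.2) of the cells had a GJB2 UMI. Their median depth was unequal, with 4298, 7549 and 19002 UMIs. The size of the class depended on filters and clustering. It held 2034 milk-only, 33 hay and 55 concentrate cells at a Leiden resolution of 0.3, 1008, 283 and 122 cells with mitochondrial UMIs under 10%, and 830, 403 and 279 cells with no mitochondrial limit. With mitochondrial UMIs under 10%, 281 of the hay and 107 of the concentrate cells came from 1 cluster, which had 8 milk-only cells. That cluster had a median of 0.447% mitochondrial UMIs and AKR1D1 among its leading genes. AKR1D1 is also among those of main cluster 10, which is counted in the other keratinocytes. GJB2 over milk only ran from 0.471 to 2.90 times with hay and from 0.595 to 3.50 times with concentrate over the 7 ways of forming the class, with calls in both directions, so no order of the libraries is read for GJB2 inside it. With no mitochondrial limit, GJB2 was 163 CPM (155 to 171), 86.1 CPM (75.8 to 97.4) and 96.9 CPM (86.9 to 108). The class then had 2 clusters. In the cluster led by CNFN it was 163, 224 and 304 CPM for milk only, hay and concentrate, from 829, 10 and 19 cells. In the other, with 1 milk-only cell and a median of 22.3% mitochondrial UMIs, it was 83.1 CPM in 393 hay and 84.7 CPM in 260 concentrate cells. In each of the 7 ways, each connexin was higher in differentiated cells than in the other keratinocyte classes of the same library.

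In the other keratinocytes, which made up most cells, GJA1 differed in steps between the 3 libraries while GJB2 was low in each. GJA1 measured 60.7 CPM (58.2 to 63.4) with milk only, 103 CPM (99.9 to 107) with hay and 210.5 CPM (206 to 215) with concentrate. GJB2 measured 4.90 CPM (4.19 to 5.70), 3.74 CPM (3.13 to 4.42) and 8.41 CPM (7.48 to 9.44). The order of GJA1 in other keratinocytes held in the 7 ways of forming the classes, although the milk-only level was 13.7 CPM with at least 1000 genes per cell, 12.7 CPM with mitochondrial UMIs under 10% and 15.9 CPM at a Leiden resolution of 0.3. None of these ways left out milk-only cluster 5, led by ZFP36 and ATF3. That cluster held 1084 of the 2555 milk-only cells at 16.4 CPM (14.5 to 18.6), against 138 CPM in the 838 cells of milk-only cluster 6. The step from milk only to hay was not computed without cluster 5 and is read for the pooled cells alone. Cycling cells as a whole had GJA1 at 6.06 CPM (4.03 to 8.76), 33.98 CPM (30.2 to 38.1) and 115 CPM (108 to 122). In cycling cluster 4, with 208, 947 and 188 cells, it was 5.92 CPM (3.90 to 8.62), 32.6 CPM (28.8 to 36.7) and 9.87 CPM (6.03 to 15.2), so that concentrate was lower than hay. Cycling cells had 2, 5 and 26 GJB2 UMIs in all, which is at most 2.84 CPM (1.86 to 4.17).

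**Figure D1:**
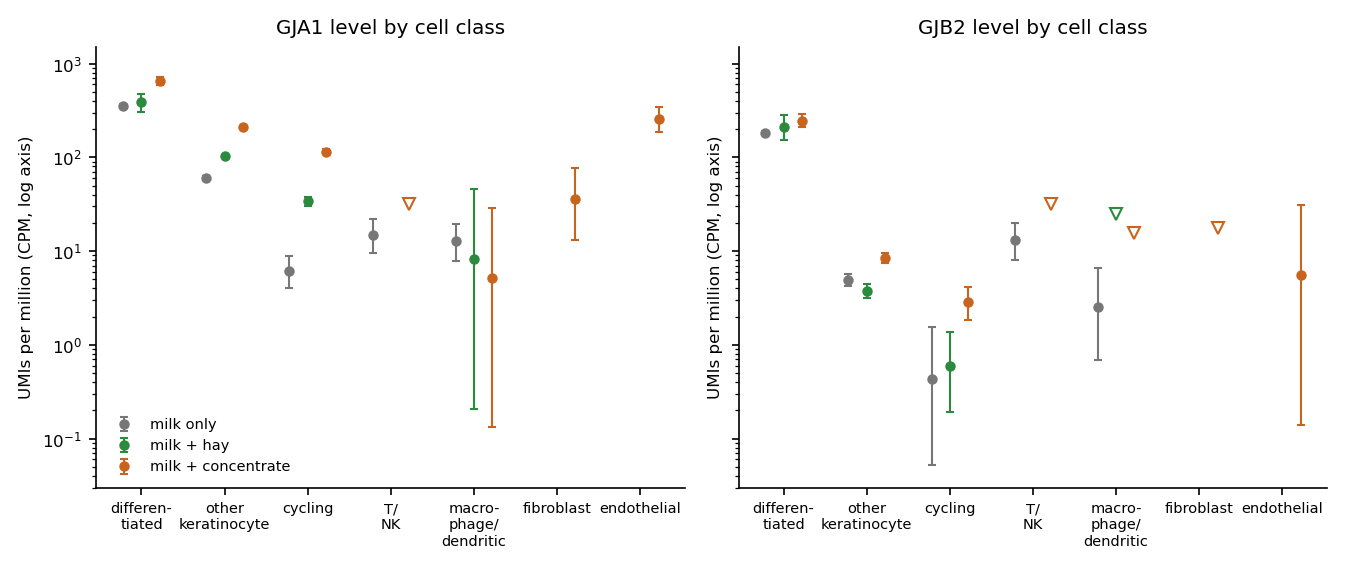
Levels of GJA1 (left) and GJB2 (right) in CPM on a log axis, by cell class and library, with 95% exact Poisson intervals; open triangles mark the limit of 3 counts where no UMI was found, and classes with under 20 cells in a library are not drawn. Differentiated cells are highest for both genes, and GJA1 in other keratinocytes steps from 60.7 over 103 to 210.5 CPM.

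The classes contributed unequally to these totals. In the milk-only library the differentiated cells contributed 57.8% of keratinocyte GJA1 UMIs and 89.7% of GJB2 UMIs, while holding 17.3% of all keratinocyte UMIs. With hay they contributed 1.94% of GJA1 and 23.8% of GJB2 from 0.461% of all UMIs, and with concentrate 4.96% of GJA1 and 34.2% of GJB2 from 1.51%. The 10% of keratinocytes with the most GJA1 UMIs held 67.9%, 65.9% and 55.5% of them in milk only, hay and concentrate. The number of GJA1 UMIs per GJB2 UMI can be compared between classes, though not read as a ratio of the 2 transcripts, since lengths and capture differ. In differentiated cells it was 1.96 (1.84 to 2.09), 1.82 (1.24 to 2.69) and 2.64 (2.20 to 3.18). In other keratinocytes it was 12.4 (10.6 to 14.6), 27.6 (23.3 to 33.0) and 25.0 (22.3 to 28.2), well above the differentiated values in each library.

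Compared as sums over all keratinocytes, GJA1 with concentrate was 1.85 times (1.79 to 1.92) the milk-only level, a log2 ratio of 0.89, and 2.16 times (2.08 to 2.24) the hay level. Differences of at least 1.5-fold whose interval excludes 1 are called here, which is a rule of size and not a test. Of 4757 genes with at least 10 CPM in 1 library, 9.56% were called higher with concentrate than with milk only, and 160 had a larger ratio than GJA1. Against hay, 13.8% were called higher and 1.91% lower with concentrate. GJA1 with hay was 0.859 times (0.824 to 0.895) the milk-only level and was not called, where 5.17% of genes were called higher. GJB2 with hay was 8.53-fold lower (7.32 to 9.98) than with milk only, a log2 ratio of -3.09, where 20.7% of genes were called lower and 83 had a lower ratio. GJB2 with concentrate was 3.22-fold lower (2.91 to 3.58) than with milk only, where 13.1% of genes were called lower, and 2.64-fold higher (2.23 to 3.15) than with hay. The median log2 ratio of all measured genes was -0.16 for hay over milk only and 0.04 for concentrate over milk only.

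These ratios turned on which cells were summed. Without the differentiated class, GJA1 was 1.66-fold (1.58 to 1.75) higher with hay than with milk only, where 5.07% of genes were called higher, and 3.51-fold (3.35 to 3.68) higher with concentrate, where 8.56% were. GJB2 without that class was 0.718 times (0.570 to 0.902) the milk-only level with hay and not called, and 1.66 times (1.37 to 2.01) that level with concentrate. GJB2 was under 10 CPM in these cells of each library, and the milk-only cells were near the level of immune cells given below, so no direction is read from the latter ratio. Within other keratinocytes GJA1 was 1.70-fold (1.61 to 1.79) higher with hay and 3.47-fold (3.30 to 3.64) higher with concentrate, and 29 of 4690 measured genes had a larger ratio in the latter. Over the 7 ways of forming the class these ratios ran from 1.69 to 8.15 with hay and from 3.45 to 16.3 with concentrate. Both were largest with at least 1000 genes per cell, where the milk-only level was 13.7 CPM. The size of these ratios is therefore not settled. In other keratinocytes 5.54% of genes were called higher and 22.8% lower with hay, and 8.49% higher and 14.2% lower with concentrate; between concentrate and hay it was 13.5% and 2.17%. GJB2 there was 0.762 times (0.604 to 0.960) the milk-only level with hay, and 1.72 times (1.42 to 2.09) with concentrate, again under 10 CPM. In cycling cells GJA1 was 5.61-fold (3.799 to 8.59) higher with hay and 19.0-fold (13.1 to 28.7) higher with concentrate than with milk only, where 4.6% and 8.18% of genes were called higher and 29.8% and 17.7% lower. The concentrate value rests on cluster 9, with 480 of the 668 concentrate cycling cells. In cluster 4 alone, GJA1 was 5.50-fold (3.70 to 8.50) higher with hay than with milk only, while concentrate was 1.67 times (0.886 to 3.08) the milk-only level, which was not called, and 0.303 times (0.182 to 0.477) the hay level. The cycling ratios also moved with the way the class was formed. Hay over milk only was 1.92 (1.52 to 2.45) with the connexins left out of clustering, 1.32 (1.10 to 1.60) with no mitochondrial limit, 1.27 (1.05 to 1.53) with at least 1000 genes, 1.03 (0.833 to 1.27) at a Leiden resolution of 0.3 and 0.649 (0.446 to 0.936) with mitochondrial UMIs under 10%. No direction between hay and milk only is therefore read for cycling cells. Concentrate over milk only stayed called, at 2.84 to 19.0 times, in the 7 ways of forming the class. The milk-only level under the 19.0-fold ratio was 6.06 CPM, from 28 UMIs. That was below GJA1 in milk-only T or NK cells, at 14.9 CPM (9.57 to 22.2), and in macrophage or dendritic cells, at 12.7 CPM (7.78 to 19.7). The size of that ratio is therefore not read. In differentiated cells GJA1 was 1.08 times (0.853 to 1.35) the milk-only level with hay and 1.82-fold (1.64 to 2.01) higher with concentrate, and GJB2 was 1.17 (0.843 to 1.57) and 1.35 times (1.14 to 1.59) that level, neither of them called. In that class 8.08% of genes were called higher and 6.05% lower with hay, and 12.8% higher and 14.7% lower with concentrate. With mitochondrial UMIs under 10%, differentiated GJA1 with concentrate was 1.09 times the milk-only level and not called. Most concentrate cells of that class came from the AKR1D1 cluster described above, so the class held different cells. Between concentrate and hay, where 3.69% were called higher and 4.94% lower, differentiated GJA1 was 1.69-fold (1.33 to 2.17) higher.

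The call for GJA1 between concentrate and milk only also ended under 3 further settings. The log2 ratio was 0.14 with mitochondrial UMIs limited to under 10%, 0.20 as a mean over cells of each cell's CPM, and 0.39 without the milk-only cluster led by ZFP36 and ATF3. For hay over milk only, GJA1 was past 1.5-fold lower under the same settings, with log2 ratios of -1.27, -0.72 and -0.72. Compared over keratinocytes rather than within single classes, GJA1 stayed past 1.5-fold between concentrate and hay in each setting tried. For GJB2, weighting the 3 keratinocyte classes alike gave log2 ratios of 0.21 for hay and 0.46 for concentrate over milk only, the opposite sign to the sums, and 0.25 for concentrate over hay, which ended that call.

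**Figure D2:**
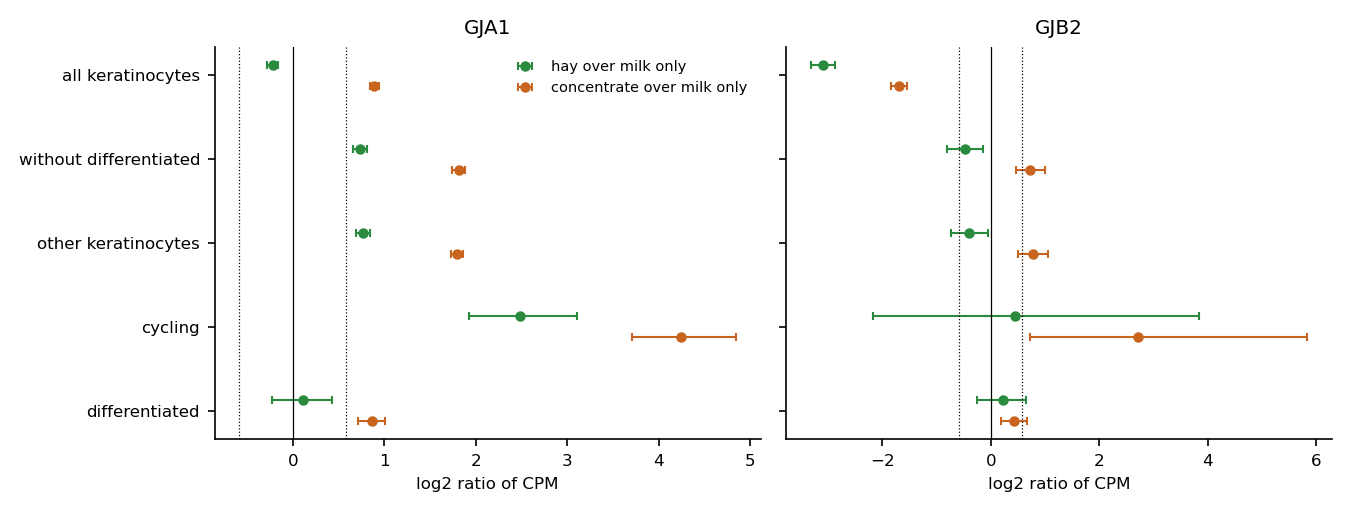
Log2 ratios of CPM over milk only for GJA1 (left) and GJB2 (right) in 5 sets of keratinocytes, with 95% exact conditional binomial intervals; dotted lines mark 1.5-fold. The GJB2 ratio is -3.09 for hay and -1.69 for concentrate over all keratinocytes and is -0.48 and 0.73 once the differentiated class is left out.

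Shares of cells with a UMI depend on depth, so each cell was also thinned at random to 2000 UMIs, with shallower cells left out (219 milk-only, 0 hay and 69 concentrate keratinocytes). The thinned share for GJA1 was 15.97% (14.7 to 17.3) with milk only, 13.4% (12.6 to 14.2) with hay and 22.0% (20.8 to 23.2) with concentrate. For GJB2 it was 6.72% (5.88 to 7.64), 0.757% (0.568 to 0.990) and 1.02% (0.749 to 1.35), and the intervals of hay and concentrate overlapped. Within other keratinocytes the thinned GJA1 share was 9.44% (8.32 to 10.7), 14.4% (13.5 to 15.3) and 22.8% (21.5 to 24.2), the same order as the levels. The thinned GJB2 share there was 1.09% (0.719 to 1.58), 0.748% (0.546 to 0.999) and 0.868% (0.602 to 1.21), with overlapping intervals.

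Immune cells, which are not known for abundant GJB2, served as the background for shares. Whether free RNA, doublets or expression gave their connexin UMIs was not tested. In the milk-only library 7.23% (4.93 to 10.2) of 415 immune cells had a GJA1 UMI and 5.06% (3.16 to 7.63) a GJB2 UMI, at a median of 5649 UMIs. The unthinned GJB2 share in milk-only other keratinocytes, 4.97% (4.16 to 5.89) at a median of 11905 UMIs, was at that background and is not read as expression. Its thinned share of 1.09% was also below the 2.49% (1.202 to 4.54) of thinned immune cells. GJA1 in the same keratinocytes, at 26.7% (25.0 to 28.4), was above the background, also when thinned (9.44% against 2.74%, 1.38 to 4.86). GJA1 UMIs per GJB2 UMI numbered 1.14 (0.610 to 2.16) in the 306 milk-only T or NK cells and 5 (1.67 to 20.1) in the 109 macrophage or dendritic cells. Both genes were found together in 5 T or NK cells, where the product of the shares gives 1, a ratio of 5 (1.62 to 11.7). In hay, 1 GJA1 and 0 GJB2 UMIs were found in 33 immune cells. In concentrate, 1 GJA1 and 0 GJB2 UMIs were found in 90 immune cells at a median of 2798 UMIs, where the limit of 3 counts allows up to 3.33% of cells with a GJB2 UMI at that depth.

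**Figure D3:**
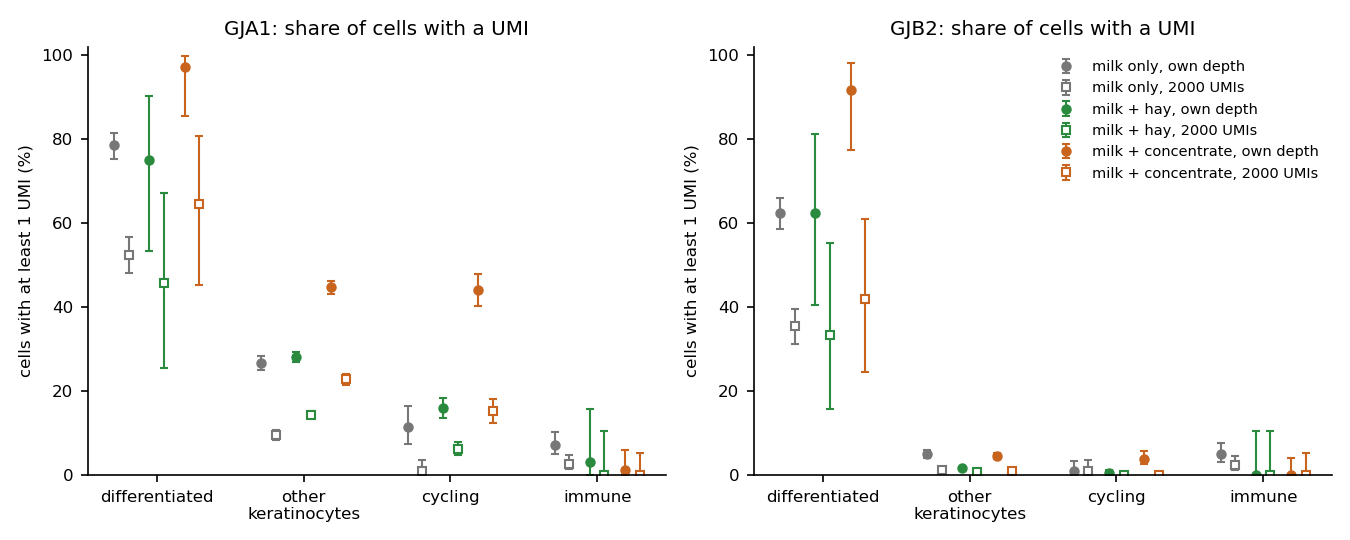
Share of cells with at least 1 UMI of GJA1 (left) and GJB2 (right) by class and library, at each cell's own depth (filled circles) and after thinning to 2000 UMIs (open squares), with 95% Clopper-Pearson intervals. Milk-only GJB2 in other keratinocytes (4.97%) lies at the level of milk-only immune cells (5.06%), while GJA1 in other keratinocytes (26.7 to 44.8%) lies above them.

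GJA1 and GJB2 were found together in the same keratinocytes more often than the product of their shares gives. With milk only, 427 cells had both where 195 would follow from the product, a ratio of 2.19 (1.98 to 2.40). With hay, 85 cells had both against 32.0, a ratio of 2.66 (2.12 to 3.29). With concentrate, 223 had both against 108, a ratio of 2.07 (1.81 to 2.36). Deeper cells show more of every gene, and cells with both had a median of 15316, 6961 and 15872 UMIs against 11162, 5743 and 6758 in cells with neither. At 2000 UMIs per cell the ratios were 3.13 (2.57 to 3.78), 4.23 (2.85 to 6.03) and 2.81 (1.88 to 4.03), so the excess was present at a common depth.

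Read from the side of each gene, the overlap was uneven. Of the cells with a GJB2 UMI, 78.3% (74.6 to 81.7) with milk only, 70.8% (61.8 to 78.8) with hay and 93.3% (89.4 to 96.1) with concentrate also had GJA1. Of the cells with a GJA1 UMI, 34.7%, 4.56% and 10.6% had GJB2. At their own depth, cells with GJB2 thus mostly had GJA1 as well. At 2000 UMIs per cell this was less marked. Both genes were then found in 108 milk-only, 30 hay and 29 concentrate keratinocytes, and GJB2 without GJA1 in 108, 23 and 18. Inside the differentiated class the ratio has a low ceiling, since most cells had GJA1. With milk only it was 1.08 where at most 1.27 was possible. The odds ratio of the same cells, which has no such ceiling, was 2.52 (1.70 to 3.75, exact conditional) at their own depth and 1.14 (0.784 to 1.65) at 2000 UMIs per cell. Cells with both genes had a median of 11933.5 UMIs there and cells with neither 2183. In milk-only other keratinocytes the odds ratio was 4.32 (2.96 to 6.36) at their own depth and 2.79 (0.910 to 7.23) when thinned, and the thinned intervals of the 2 classes overlapped. Within other keratinocytes, a mixture of clusters, the co-detection ratio was 2.21 (1.74 to 2.77), 2.59 (2.03 to 3.26) and 2.08 (1.78 to 2.42). At 2000 UMIs per cell the latter became 2.35 (0.864 to 5.12), from 6 milk-only cells with both, 4.01 (2.62 to 5.88) with hay and 2.45 (1.47 to 3.83) with concentrate.

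KRT15, the keratin of basal rumen cells, was used to order keratinocytes within each library into 5 groups of equal size, and levels in these groups are CPM with mitochondrial UMIs left out of the total. With milk only, GJA1 was 394 CPM in the group lowest in KRT15, then 116, 56.0, 50.1 and 42.8 CPM toward the highest. With hay the corresponding levels were 248, 109, 58.4, 52.6 and 34.4 CPM. Point values were thus lower at each step to more KRT15 in both libraries, but not every step exceeded counting error. With milk only, the intervals of 56.0 and 50.1 CPM overlapped, as did those of 50.1 and 42.8 CPM. With hay, those of 58.4 and 52.6 CPM overlapped. The milk-only groups at 50.1 and 42.8 CPM had GJA1 in 23.0% and 23.3% of cells. Concentrate departed from that order, with 328, 166, 173, 192 and 230.4 CPM. In the concentrate group highest in KRT15, GJA1 (219 to 243 CPM) was above the 42.8 CPM (38.6 to 47.3) of milk only and the 34.4 CPM (30.2 to 39.1) of hay. GJB2 was lower toward high KRT15 in each library, from 201 to 3.01 CPM with milk only, from 16.9 to 0.432 CPM with hay and from 39.3 to 1.77 CPM with concentrate. Cells were grouped on their own KRT15 count, which shares library size with the connexin counts.

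Both connexins also varied with the share of mitochondrial UMIs of a cell. Among kept hay keratinocytes GJA1 was 184 CPM of nuclear UMIs below 5% mitochondrial UMIs, 28.7 CPM from 5 to 10%, 115 CPM from 10 to 15% and 300.1 CPM from 15 to 20%. With concentrate the same bins held 136, 97.5, 261 and 498 CPM, and with milk only 133, 66.0, 169 and 227 CPM. GJA1 was thus lowest in each library between 5 and 10%. GJB2 had its lowest value in the same bin, at 11.97 CPM with milk only, 1.13 CPM with hay and 4.08 CPM with concentrate, and reached 73.9, 11.2 and 32.1 CPM from 15 to 20%. The part of cell quality in these values was not tested.

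**Figure D4:**
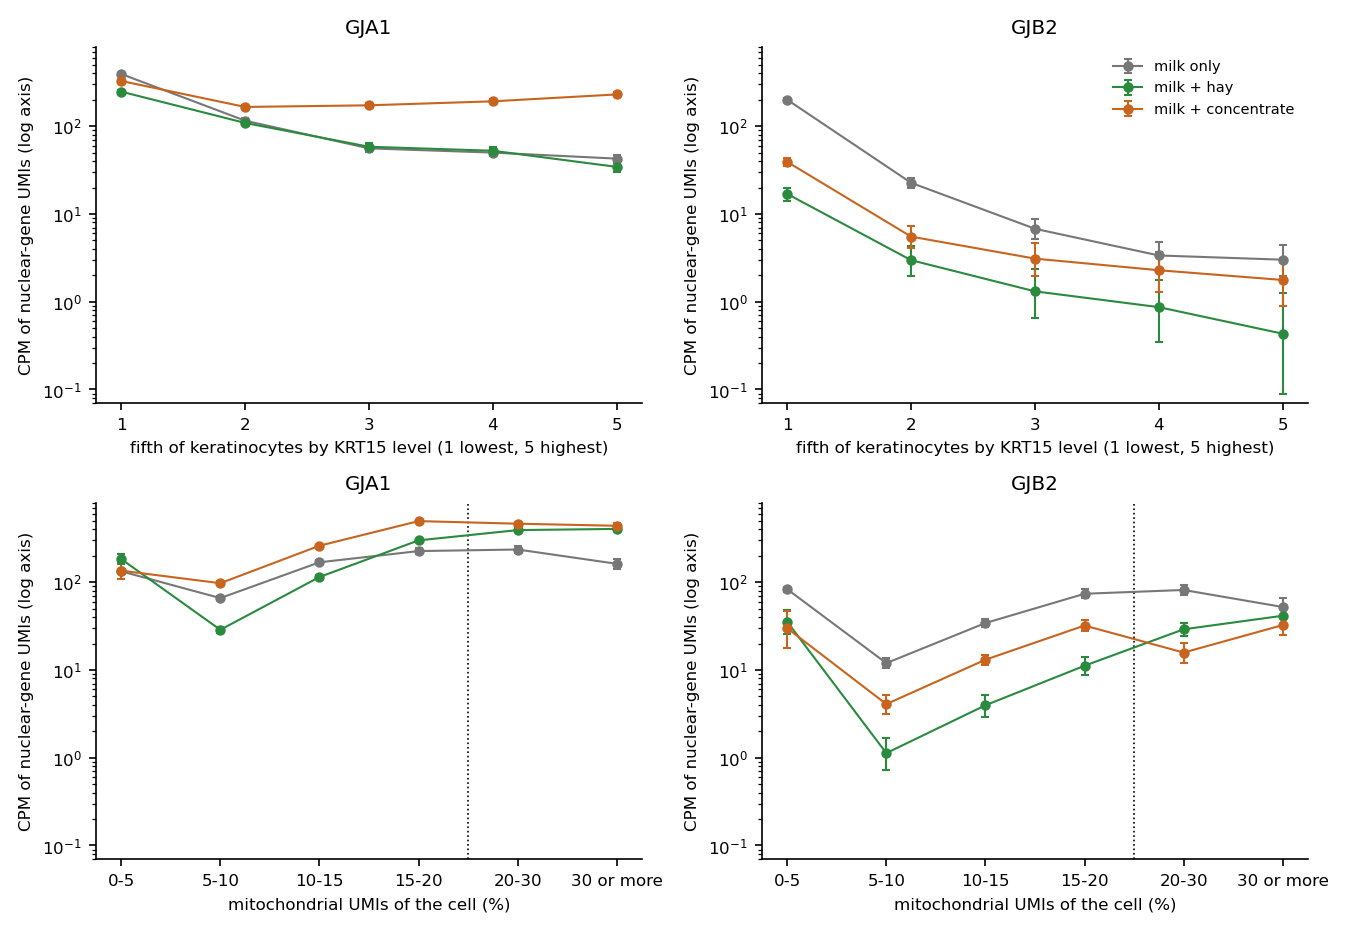
Levels of GJA1 (left) and GJB2 (right) in CPM of nuclear-gene UMIs on a log axis, over 5 equal groups of keratinocytes ordered by KRT15 (top) and over bins of mitochondrial UMIs (bottom; the dotted line marks the limit of 20%, and bins to its right hold barcodes left out), with 95% exact Poisson intervals. GJA1 declines with KRT15 in milk only and hay and stays at 166 CPM or more in concentrate.

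Over 19 profiles, each a cluster within 1 library with at least 50 cells, GJA1 ran from 0 to 357 CPM. The highest was differentiated cluster 7 of milk only. It was followed by concentrate cluster 1, which held 54.7% of that library's keratinocytes, at 268 CPM (262 to 274), a cluster also led by the fatty acid carrier FABP4 and the thioesterase THEM5. Hay cluster 10 had 232 CPM (201 to 265), with a median of 0.430% mitochondrial UMIs and 2344 CPM of KRT15 in cells that no marker list named. Concentrate cluster 0 had 204 CPM (173 to 239), and hay cluster 0, with 42.0% of the hay keratinocytes, had 175 CPM (169 to 181). Concentrate cluster 10 had 156 CPM (115 to 205), concentrate cycling cluster 9 had 145 CPM (136 to 154), and milk-only cluster 6, led by GPNMB, had 138 CPM (132 to 145). From concentrate cluster 1 down to milk-only cluster 6, the interval of each profile overlapped that of its neighbour in this order.

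At the low end, milk-only cluster 5 led by ZFP36 and ATF3 had 16.4 CPM (14.5 to 18.6) of GJA1 and held 31.6% of that library's keratinocytes. Milk-only cluster 8 had 7.32 CPM, hay clusters 2 and 3 had 16.1 and 8.26 CPM, and concentrate clusters 2 and 3 had 10.1 and 4.70 CPM. Milk-only T or NK cells had 14.9 CPM (9.57 to 22.2), so the levels of milk-only clusters 5 and 8 are not read as above background. Concentrate cluster 8, with 117 cells and KRT15 at 9284 CPM, had no GJA1 UMI. Concentrate cycling cells were split, with 145 CPM in cluster 9 and 9.87 CPM in cluster 4. Each library therefore held keratinocytes with high and with low GJA1. GJB2 exceeded 20 CPM in 2 profiles, milk-only cluster 7 (182 CPM) and hay cluster 10 (45.3 CPM, 32.5 to 61.4).

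**Figure D5:**
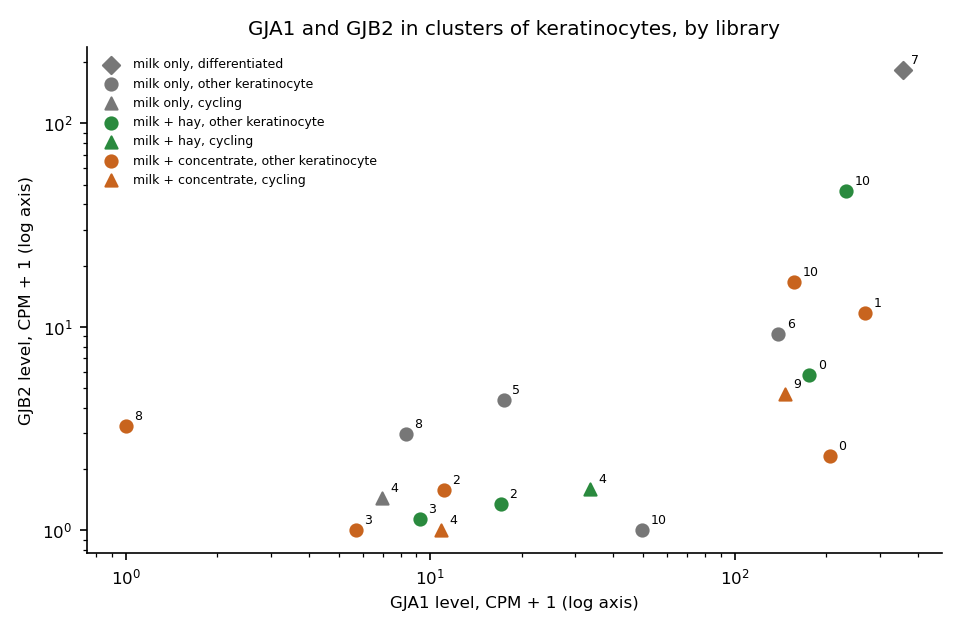
GJB2 level against GJA1 level (CPM + 1, log axes) in 19 library-by-cluster profiles of keratinocytes; colours mark the library, symbols the class and numbers the cluster. Milk-only cluster 7 is highest on both axes, and concentrate clusters 0, 1 and 9 combine 145 to 268 CPM of GJA1 with at most 10.7 CPM of GJB2.

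Across the same 19 profiles, the genes most like GJA1 among 1985 compared were the ectonucleotidase ENPP3 (Pearson r = 0.96 of log2(CPM + 10)), the acyl-CoA synthetase ACSF2 (0.92), LYPD3, a surface protein of suprabasal keratinocytes (0.91), FAM162A (0.91) and HTATIP2 (0.90). Those most like GJB2 were the phosphodiesterase GDPD3 (0.97), the cytokine IL36A (0.95), its receptor's antagonist IL36RN (0.94), the transcription factor ELF5 (0.93) and the cytochrome CYP3A24 (0.92). GJB2 ranked 200 among genes by likeness to GJA1, with r = 0.66. Of the keratinocyte markers, DSC2, a desmosomal cadherin, had r = 0.79 with GJA1 and 0.90 with GJB2, and KRTDAP, a differentiation marker, had 0.60 and 0.91. KRT15 had r = -0.66 with GJA1 and -0.78 with GJB2, and COL17A1, which anchors basal cells, had -0.54 and -0.56. The profiles share libraries and depth, and the differentiated cluster weighs heavily, so these are descriptions with no p.

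Endothelial cells and fibroblasts were numerous enough to read in the concentrate library alone. The 59 endothelial cells had 13 of 17 endothelial markers at 10 CPM or more. Their leading genes included the lymphatic markers MMRN1 and LYVE1, followed by CDH5 and PECAM1. Which kind of vessel they came from was not tested. These cells held 46 GJA1 UMIs, or 256 CPM (188 to 342), in 45.8% (32.7 to 59.2) of cells. Thinned to 2000 UMIs, 40.5% (24.8 to 57.9) of 37 cells had GJA1. The interval of that level includes the 210.5 CPM of concentrate other keratinocytes, and the median depth was 2409 UMIs. The endothelial cells had 1 GJB2 UMI. The 57 fibroblasts, with all 14 fibroblast markers found by symbol at 10 CPM or more and COL3A1 and COL1A1 among their leading genes, held 6 GJA1 UMIs, or 35.5 CPM (13.02 to 77.2), in 8.77% (2.91 to 19.3) of cells. They had 0 GJB2 UMIs, which allows up to 17.7 CPM by the limit of 3 counts and up to 21.8 CPM by the exact Poisson interval. With the connexins left out of the clustering genes, the fibroblast cluster had 59 cells with 15 GJA1 UMIs, or 76.8 CPM (43.0 to 127). The 2 cell groups also carried 908 and 1005 CPM of summed basal keratinocyte markers, and the part of free keratinocyte RNA in their GJA1 was not tested.

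Of 24 connexins and pannexins on a list, 18 were matched by symbol, and the 16 besides GJA1 and GJB2 were close to absent from keratinocytes. None reached 10 CPM there in any library, 9 had no keratinocyte UMI at all, and the highest was GJB5 with milk only at 0.631 CPM. GJB6, the partner of GJB2 in the inner ear and epidermis, and GJB1, the main liver connexin, were among those with 0 UMIs. The stroma differed. In concentrate fibroblasts GJC1, connexin 45, had 12 UMIs, or 71.0 CPM (36.7 to 124), and in endothelial cells 5 UMIs, or 27.9 CPM (9.05 to 65.0). The vascular connexins GJA4 and GJA5 had 4 UMIs (22.3 CPM, 6.07 to 57.1) and 2 UMIs (11.1 CPM, 1.35 to 40.3) in the endothelial cells and none in keratinocytes.

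Genes that bind, phosphorylate or internalise connexins were compared next. Of 17 measured members of the list of gap junction partners and regulators, 1 was called higher and 2 lower with hay (median log2 ratio over milk only -0.23, against -0.16 over all measured genes, of which 5.17% were called higher and 20.7% lower), and 1 higher and 0 lower with concentrate (median -0.03, against 0.04 over all measured genes, of which 9.56% were called higher and 13.1% lower). The 1 higher gene in both was DAB2, an endocytic adaptor that takes part in clathrin-mediated uptake, with 0.463, 9.45 and 18.1 CPM in milk-only, hay and concentrate keratinocytes. DAB2 reached the 10 CPM needed to be measured in the concentrate library alone, which favours a higher call there. MAPK3, a kinase known to phosphorylate GJA1, was 1.74-fold lower (1.59 to 1.91) with hay and at 0.882 times the milk-only level with concentrate. CDH1, the epithelial cadherin, was 1.72-fold lower with hay, at 11.3 CPM against 19.3 CPM. TJP1, the scaffold ZO-1 that binds the tail of GJA1, stood at 15.3, 10.4 and 16.9 CPM and was not called against milk only.

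The lists of other junction types were counted in the same sums, for which the shares over all genes were 5.17% higher and 20.7% lower with hay, and 9.56% higher and 13.1% lower with concentrate. Of 9 measured adherens junction genes, 3 were called lower with hay and 1 with concentrate, none higher, with medians of -0.22 and -0.06. VCL, vinculin, was lower in both, with 26.6, 10.5 and 14.5 CPM, ACTN1 was 1.61-fold lower with hay, and CTNND1 stood at 17.3, 15.6 and 25.1 CPM. Of 8 tight junction genes, 2 were called lower with hay, and 3 lower and 1 higher with concentrate, with medians of -0.44 and -0.28. CLDN4, a sealing claudin of surface cells, had 21.2, 4.66 and 5.35 CPM, TJP3 13.1, 7.45 and 6.27 CPM, CLDN1 20.4, 14.9 and 11.1 CPM, and the polarity gene PARD3 46.2, 57.8 and 78.7 CPM. CLDN4, TJP3 and, among adherens junction genes, ACTN1 reached the 10 CPM needed to be measured in the milk-only library alone. That filter favours lower calls for them, and it also applies to the shares over all genes. Of 7 desmosome genes, 4 were called lower with hay, and 1 lower and 1 higher with concentrate, with medians of -0.74 and -0.36. DSP, the desmosomal linker to keratin, was 2.57-fold (2.52 to 2.63) higher with concentrate, and DSC2 was 3.39-fold lower with hay and 2.28-fold lower with concentrate. DSG3 had 174, 87.6 and 118 CPM and PERP 38.4, 21.8 and 27.7 CPM. In other keratinocytes DSC2 had 50.0, 35.7 and 50.9 CPM and DSP 217, 333 and 633 CPM. DSG3 had 129, 87.6 and 119 CPM there, and PERP 26.6, 22.4 and 25.5 CPM. Of 7 desmosome genes there, 2 were called lower and 1 higher with hay, and 0 lower and 1 higher with concentrate. The shares over all genes there were 22.8% lower and 5.54% higher with hay, and 14.2% and 8.49% with concentrate. Within differentiated cells, concentrate over milk only, 5 of 8 measured adherens junction genes were called higher and 0 lower (median 0.74), and 5 of 8 desmosome genes higher and 1 lower (median 0.79), where 12.8% of all genes were called higher, 14.7% lower and the median was -0.08. GJA1 was called higher in the same comparison, at a log2 ratio of 0.86. The comparison sets 36 concentrate cells against 667 milk-only cells of unequal depth, and JUP is on both lists. With mitochondrial UMIs under 10%, where most concentrate cells of the class came from the AKR1D1 cluster, GJA1 was 1.09 times (0.884 to 1.34) the milk-only level and not called.

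Of 22 hyperproliferative and wound genes, with which GJB2 is often grouped, 14 had a symbol and 9 were measured. Of these 9, 8 were called lower with hay (median log2 ratio -1.61, against -0.16 over all genes, of which 20.7% were called lower) and 8 with concentrate (median -1.24, against 0.04, with 13.1% called lower), none higher. The alarmin S100A8 had 1524, 31.0 and 101 CPM and its partner S100A9 1184, 25.3 and 44.1 CPM in milk-only, hay and concentrate keratinocytes. The cytokine IL36A had 27.3, 1.77 and 4.94 CPM, and the growth factor AREG 123, 27.2 and 28.6 CPM. IL36A reached the 10 CPM needed to be measured in the milk-only library alone, which favours lower calls for it. In other keratinocytes IL36A had 1.99, 1.59 and 2.19 CPM, so its milk-only level, like that of GJB2, was low outside the differentiated class. The other named genes stayed highest with milk only there. S100A8 had 431, 23.9 and 73.4 CPM, S100A9 247, 11.6 and 25.1 CPM, and AREG 139, 26.9 and 24.2 CPM. Of 8 wound genes measured in other keratinocytes, 6 were called lower with hay and 6 with concentrate. The shares over all genes there were 22.8% and 14.2%. Of 11 measured AP-1 and immediate early genes, 10 were called lower with hay (median -1.80) and 9 with concentrate (median -1.73), against the same shares and medians over all genes. ZFP36 had 1942, 149 and 197 CPM, ATF3 356, 41.5 and 53.9 CPM, IER3 206, 42.0 and 47.9 CPM, and EGR1 75.8, 21.8 and 17.4 CPM. ZFP36 and ATF3 were among the 10 leading genes of milk-only cluster 5, in which GJA1 was 16.4 CPM. EGR1 was among those of cluster 2, in which GJA1 was 16.1 CPM with hay and 10.1 CPM with concentrate.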

How the data were processed

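The 3 libraries were made from rumen tissue digested in trypsin-EDTA, per the labels' protocols. The authors deposited UMI counts, not normalized, from Cell Ranger (version 3.1 per the submitters' processing notes, 5.0.0 per the file headers). Genome build: not given in the sources used here. The shallowest barcodes held 727, 2263 and 1047 UMIs with milk only, hay and concentrate.

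A cell needed 500 detected genes and less than 20% mitochondrial UMIs (13 genes). Scrublet (scanpy 1.11.5) marked 2, 0 and 0 cells, under 0.5%, so its calls were ignored and no doublet was removed. After scaling to 10000 per cell, 2000 variable genes, 30 principal components and 15 neighbours gave 15 Leiden clusters (leidenalg 0.10.2, resolution 0.6). A cluster was named when at least 3 markers of a list reached 20 CPM and 2-fold over other cells; this scoring was chosen after seeing the data. Python 3.11.15, numpy 2.4.6, scipy 1.17.1, pandas 2.3.3 and matplotlib 3.10.9 were used. The ratio and co-detection computations were tested on simulated data.

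Named genes are the members, up to 4 genes per list with the largest ratio over milk only, other connexins at 10 CPM or more in a class, and the 5 genes most like each member over the profiles. The members and lists were chosen with earlier results of these data known. Alternatives varied filters, scaling, clustering, cell sets and depth. Class levels under other filters and clusterings, and odds ratios, were added after seeing the data.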

Additional observations from a re-analysis of the deposited data

Results flagged for a closer look

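Barcodes left out of the comparisons held much GJA1. Those with at least 500 genes that were removed for mitochondrial UMIs alone had GJA1 at 280.3 CPM (270.0 to 291) in 1942 hay barcodes and at 315 CPM (304 to 328) in 1565 concentrate barcodes, against 144 CPM (134 to 154) in 510 milk-only barcodes. These levels lie above the 91.5, 197 and 107 CPM of the kept keratinocytes of the same libraries. GJB2 in the same barcodes was 23.2 CPM (20.3 to 26.4) with hay, 15.2 CPM (12.7 to 18.1) with concentrate and 48.7 CPM (43.1 to 54.8) with milk only, again above the kept keratinocytes. Barcodes with under 500 genes had GJA1 at 94.96, 60.6 and 51.5 CPM and GJB2 at 39.5, 3.64 and 3.30 CPM for milk only, hay and concentrate.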

How the results depend on the processing

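Values below are log2 ratios in the order hay over milk only, concentrate over milk only and concentrate over hay, where they moved beyond the counting interval. For GJA1 they were -0.0024 and 1.10 with at least 1000 genes per cell; -1.27, 0.14 and 1.40 with mitochondrial UMIs under 10%; -0.060 and, over hay, 0.92 with median-of-ratios scaling; -0.084, 0.96 and 1.04 with totals lacking the 50 most abundant genes; -0.15 and 0.96 in cells with at least 2263 UMIs. They were 0.73 and 1.81 without the differentiated cluster, -0.72 and 0.39 without the ZFP36 and ATF3 cluster, and -0.72, 0.20 and 0.92 as means over cells. For GJB2 the values were -1.41 (concentrate over milk only) with 1000 genes, -3.57, -2.84 and 0.73 with the 10% limit, -0.48 and 0.73 without the differentiated cluster, -3.62 and -2.22 without the ZFP36 and ATF3 cluster, and -3.75, -2.80 and 0.95 as means over cells. The cause was not tested.

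Alternatives chosen after seeing the data gave, for GJA1, 0.18, 0.96 and 0.78 with no mitochondrial maximum and 0.30, 1.203 and 0.90 with classes weighted alike. For GJB2 they gave -2.27 and, over hay, 0.61 with no maximum, 0.21, 0.46 and 0.25 with classes weighted alike, and -3.43 and, over hay, 1.73 without the cluster lowest in mitochondrial UMIs. Leaving mitochondrial UMIs out of totals and clustering without the connexins kept all 6 ratios within their intervals; Leiden resolutions of 0.3 and 1.2 gave the same keratinocytes and so cannot move these sums. They do move classes: in cycling cells GJA1 turned to -0.62 for hay over milk only with the 10% limit, and to -1.72 for concentrate over hay in cycling cluster 4 alone. Median-of-ratios scaling moved the median of all genes from -0.16 to -0.0040 for hay over milk only and from 0.19 to -0.0038 for concentrate over hay.

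Thinning gave shares of 15.97%, 13.4% and 22.0% for GJA1 and 6.72%, 0.757% and 1.02% for GJB2, and co-detection ratios of 3.13, 4.23 and 2.81; the milk-only ratio was 2.57 with 1000 genes. GJB2 in hay rests on 185 UMIs. No replicate could be left out, and no result comes from a test. No paired analysis was possible because each diet had 1 library.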
